A study of Drosophila melanogaster with 6 samples.

Results

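The genes described here encode the replicative DNA polymerases of Drosophila melanogaster, the primase, the sliding clamp and a subunit of the clamp loader. They also encode the large and middle subunits of chromatin assembly factor 1 (CAF-1). These genes were chosen by name, as the rows of the count table whose FlyBase gene symbol was PolA1, PolA2, Prim1, Prim2, PolE1, PolD1, PCNA, Gnf1, Caf1-105 or Caf1-180. The choice was made with earlier results of these data known. All 10 genes had a row, out of 17562 rows in all, and all 10 passed the filter on low counts that 10632 genes passed.

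At a replication fork, DNA polymerase alpha and its primase lay down short RNA-DNA primers, DNA polymerase epsilon then extends the leading strand and DNA polymerase delta the lagging strand. PCNA is the ring that holds polymerases on DNA, and replication factor C (RFC) opens and closes that ring around primed DNA. CAF-1 travels with PCNA and places new histones H3 and H4 behind the fork. In third-instar larvae such transcripts come from dividing cells of the imaginal discs and brain and also from tissues that replicate without dividing, such as salivary gland and fat body.

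The study asked how loss of CDK8, the kinase of the Mediator complex of transcription, changes gene expression. RNA was sequenced from whole wandering third-instar larvae in 2 groups of 3 libraries, each from a pool of 10 larvae. The control was w1118, a laboratory line with a mutation in the white eye colour gene. The other group was homozygous for cdk8K185, a null allele whose deletion also removes part of the neighbouring gene I-2, which encodes an inhibitor of protein phosphatase 1. The mutant stock was kept over a TM6B balancer chromosome marked with Tb, had been crossed back to w1118 over several generations, and carries the allele on an FRT80B chromosome. Homozygotes live to the pupal stage with CDK8 that their mothers supplied. Nothing in the labels shows that the pools came from separate cultures, so the p-values measure only the spread between these libraries.

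Total counts per library ran from 9208564 to 11724703, and the first principal component, with 77.8% of the variance, separated the genotypes. Cdk8 itself fell from 9.49 ± 0.643 (SD, n = 3) to 6.14 ± 1.28 CPM (counts per 1000000, with library sizes scaled by the trimmed mean of M-values method, TMM), a log2 fold change of -0.63 (SE 0.19, edgeR adjusted p = 0.0344), so reads were still assigned to it in the mutant libraries. I-2 fell from 31.5 ± 3.83 to 5.38 ± 0.212 CPM (n = 3 each), and loss of CDK8 and of I-2 cannot be told apart in this design. Over all genes tested, 19.9% were called higher and 17% lower in cdk8K185 at a Benjamini-Hochberg adjusted p under 0.05 in edgeR's quasi-likelihood test.

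All 10 replication genes were called higher in cdk8K185 larvae, against the background of 19.9% of genes called higher, and none was lower. The log2 fold changes ran from 0.50 for Gnf1 to 1.33 for PolE1, with a median of 1.09 beside 0.02 over all genes tested. In all 10 genes every cdk8K185 library was above every w1118 library, which held for 29.2% of genes tested. Of the 10, 6 were at least 2-fold higher (PolA1, Prim1, Prim2, PolE1, PCNA and Caf1-180), against 8.85% of all genes, and 8.04% of all genes had a log2 fold change at or above the median of the list. Scaling by library totals in place of TMM raised all fold changes (by a median of 0.22 on the log2 scale over all genes) and brought 9 of the 10 to at least 2-fold, the exception being Gnf1. The summed TMM-scaled level of the 10 genes was 175, 179 and 164 CPM for w1118, against 345, 348 and 345 CPM for cdk8K185. As a share of all counts in a library, the 10 genes took 0.0146 to 0.0168% in w1118 and 0.0348 to 0.0386% in cdk8K185.

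**Figure D1:**
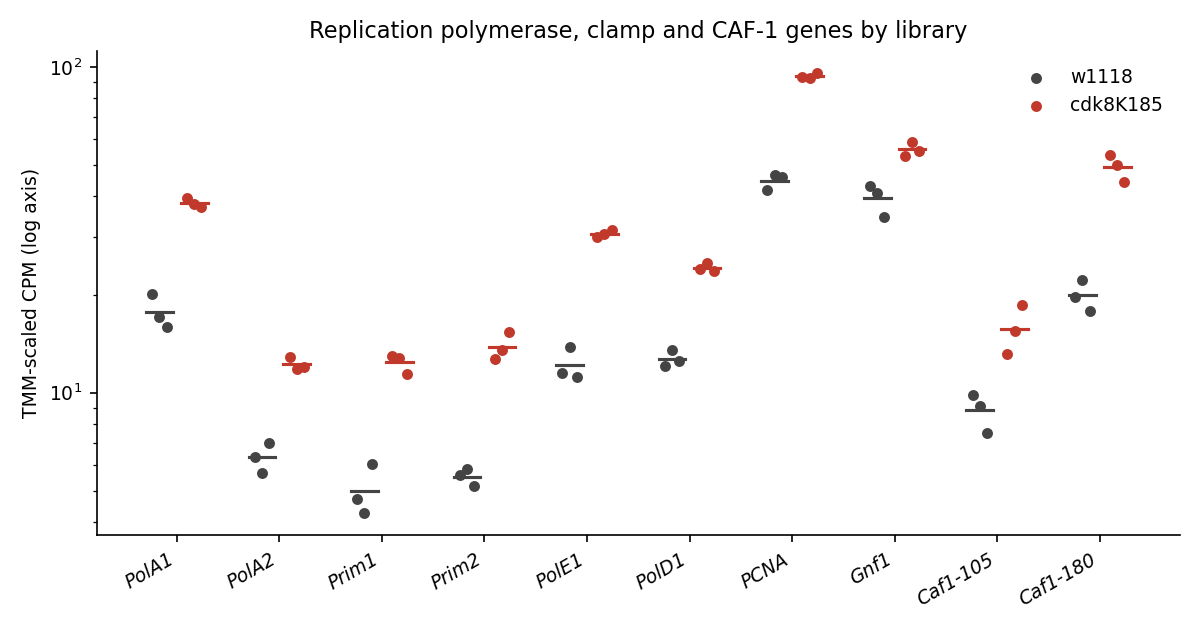
TMM-scaled CPM (log axis) of each of the 10 genes in each of the 3 w1118 libraries (dark points) and 3 cdk8K185 libraries (red points), with bars at the group means. In every gene the cdk8K185 points lie above the w1118 points, with the narrowest gap in Gnf1 (34.6 to 43.0 against 53.3 to 58.9 CPM) and Caf1-105 (7.54 to 9.83 against 13.2 to 18.6 CPM).

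The libraries were whole larvae, so fewer cells of a type and less RNA per cell cannot be told apart, and the makeup of the RNA differed between the genotypes. A list of 8 salivary gland genes summed to 28825 to 35274 CPM in w1118 and 1799 to 2755 CPM in cdk8K185, where 7 of the 8 were called lower, among them the glue genes Sgs1 (log2 fold change -6.46) and Sgs5 (-5.37). A list of 7 fat body genes summed to 68504 to 74389 CPM and 20103 to 42779 CPM, with 3 of 7 lower, Fbp1 (-3.10) and Lsd-1 (-2.41) by the most. Genes of dividing cells summed to 575 to 662 CPM in w1118 and 815 to 909 CPM in cdk8K185, and 12 of 20 were called higher, with the largest changes in cid (1.57, which lost its call in 3 of the 6 leave-one-out fits) and stg (1.56). Imaginal disc genes gave 273 to 322 CPM against 290 to 338 CPM, ranges that overlapped, with 2 of 13 higher (nub, and rn, whose call was lost in 5 of 6 leave-one-out fits), 1 lower (eya) and a median log2 fold change of 0.11. Neuroblast and neuron genes summed to 372 to 408 CPM and 230 to 236 CPM, with 2 of 9 lower (Syt1, and mira, whose call was lost in 3 of those fits). Beside these counts of calls, 19.9% of all genes tested were called higher and 17% lower, so the disc and neural counts were near the background. Of the 8 gonad genes listed, 4 could be tested and 2 were lower, sa and aly, both germline genes of the testis with at most 1 count in each cdk8K185 library. The other 2 tested, vas (log2 fold change 0.76) and tj (0.90), were not called. Their cdk8K185 libraries all lay above their w1118 libraries. Of these sums only that of dividing cells was higher in cdk8K185 without overlap, and those of salivary gland, fat body and neural genes were lower. Single genes weighed heavily in the neural and fat body sums. Mean Syt1 was 262 CPM in w1118 and 124 CPM in cdk8K185, and 7 of the 9 neural genes were not called. Mean Fbp1 was 35967 CPM in w1118 and 4189 CPM in cdk8K185, and 4 of the 7 fat body genes were not called. The part of these sums in the result was not tested.

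The polymerase alpha-primase complex has 4 subunits, all in the list, and all were higher in cdk8K185. PolA1 (FBgn0259113, 3R:21666562-21671750, minus strand, 6 exons) encodes the catalytic subunit. Its level was 20.1, 17.1 and 15.9 CPM in w1118 replicates 1 to 3 and 39.6, 38.0 and 37.1 CPM in cdk8K185, so the 2 groups were far apart and the mutant libraries lay close together. The fold change was 2.16 (log2 1.11, SE 0.11, adjusted p = 0.000475). PolA2 (FBgn0005696, 3R:27239163-27241228, plus strand, 1 exon), the accessory B subunit, stood at 6.33, 5.66 and 7.0 CPM in w1118, against 12.8, 11.8 and 12.03 CPM in cdk8K185. No library overlapped, and the log2 fold change was 0.95 (SE 0.13, adjusted p = 0.00187).

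Prim1 (FBgn0011762, 3L:8340314-8344404, plus strand, 3 exons) is the primase subunit that makes the RNA. It was at 4.73, 4.27 and 6.03 CPM in the control, and reached 12.9, 12.8 and 11.4 CPM in the mutant. The third w1118 library was the highest of its group and was still well under the mutant libraries. The log2 fold change was 1.31 (SE 0.17, adjusted p = 0.0012). Prim1 lies 1.49 Mb from Cdk8 on the same chromosome arm, closer to it than any other gene of the list. Alleles on the mutant chromosome cannot be told apart from loss of Cdk8 for this gene. The same limit holds for the other genes of the list on that chromosome. These are Prim2 and PolD1 on 3L, and PolA1, PolA2, PolE1 and Gnf1 on 3R. Prim2 (FBgn0259676, 3L:20359833-20361585, minus strand, 1 exon) encodes the large primase subunit, which helps to hand the primer to polymerase alpha. It was at 5.58, 5.85 and 5.17 CPM in w1118, against 12.7, 13.5 and 15.4 CPM in cdk8K185. Both groups were tight beside the distance between them, with a log2 fold change of 1.32 (SE 0.14, adjusted p = 0.000547).

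PolE1 (FBgn0264326, 3R:23348128-23355163, plus strand, 4 exons), the catalytic subunit of polymerase epsilon, had the largest change in the list. It was counted at 11.5, 13.8 and 11.2 CPM in w1118, against 30.1, 30.6 and 31.5 CPM in cdk8K185. The mutant libraries differed from each other by less than the control libraries did, and the fold change was 2.52 (log2 1.33, SE 0.11, adjusted p = 0.000245). PolD1 (FBgn0263600, 3L:15984322-15987815, minus strand, 2 exons), the catalytic subunit of polymerase delta, was at 12.1, 13.5 and 12.5 CPM in w1118. In cdk8K185 it was at 23.9, 25.0 and 23.6 CPM, so that neither group spread far and the groups were well apart. Its log2 fold change was 0.93 (SE 0.10, adjusted p = 0.000624).

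The accessory subunits of both polymerases had smaller log2 fold changes than their catalytic subunit, although the differences between subunits were not tested. For polymerase epsilon, PolE2 rose by 1.06 on the log2 scale (adjusted p = 0.00952), PolE3 by 0.74 (adjusted p = 0.0121) and PolE4 by 0.65 (adjusted p = 0.0191). PolE3 and PolE4 are small histone-fold subunits, and PolE3 is also a subunit of the CHRAC chromatin remodeller. The call for PolE4 was lost when cdk8K185 replicate 1 or replicate 3 was left out (adjusted p = 0.0586 and 0.0653). For polymerase delta, PolD2 was higher (log2 fold change 0.62, adjusted p = 0.00634), and PolD3, at 12.8 ± 0.735 and 14.5 ± 1.25 CPM (n = 3 each), did not pass the test (0.18, adjusted p = 0.258).

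PCNA (FBgn0005655, 2R:20261754-20262883, minus strand, 2 exons) encodes the clamp itself. It was at 41.8, 46.4 and 46.0 CPM in w1118, against 92.7, 92.2 and 95.8 CPM in cdk8K185. This was the smallest standard error in the list (log2 fold change 1.07, SE 0.08, adjusted p = 0.000197), with 427 to 1115 counts per library behind each value. PCNA2, a second PCNA-like gene of the fly, went the other way. It was counted at 6.14, 8.04 and 8.62 CPM in w1118, against 3.80, 4.89 and 4.47 CPM in cdk8K185, without overlap (log2 fold change -0.79, SE 0.20, adjusted p = 0.0198). Its call was lost with library totals (-0.57, adjusted p = 0.0643) and in 4 of the 6 leave-one-out fits.

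Gnf1 (FBgn0004913, 3R:4906622-4910081, plus strand, 4 exons) encodes the large subunit of RFC, the one that is particular to the loader of PCNA. It was at 43.0, 41.0 and 34.6 CPM in w1118. In cdk8K185 it was at 53.3, 58.9 and 55.1 CPM, above all control libraries. The fold change was 1.41 (log2 0.50, SE 0.11, adjusted p = 0.0107), the smallest of the list and the only one that did not pass an adjusted p under 0.01. The small RFC subunits, which several loaders share, gave a log2 fold change of 1.00 for RfC3 (adjusted p = 0.00819), 0.73 for RfC4 (adjusted p = 0.00267) and 0.53 for RfC38 (adjusted p = 0.0177). RfC38 shares 404 exon bases with Nup160 on the opposite strand, and its call was lost in 4 of the 6 refits without a single library. The last small subunit, CG8142, stood at 10.7 ± 1.38 CPM in the control and 14.2 ± 1.37 CPM in the mutant (n = 3 each) and did not pass the test (log2 fold change 0.40, adjusted p = 0.0605), which it passed with library totals (adjusted p = 0.0161). Large subunits of other loaders were also measured. For cutlet, the fly Ctf18, the log2 fold change was 1.64 (adjusted p = 0.000141), and for elg1, whose loader takes PCNA off DNA in yeast, it was 0.65 (adjusted p = 0.00189). The gene elg1 was singled out after its values were seen. It shares 205 exon bases with CG5157 on the opposite strand, which had 1, 6 and 9 counts in w1118 and 90, 74 and 119 in cdk8K185, beside 153, 153 and 134 counts of elg1 in w1118 and 276, 232 and 270 in cdk8K185. The part of this overlap in the elg1 result was not tested.

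**Figure D2:**
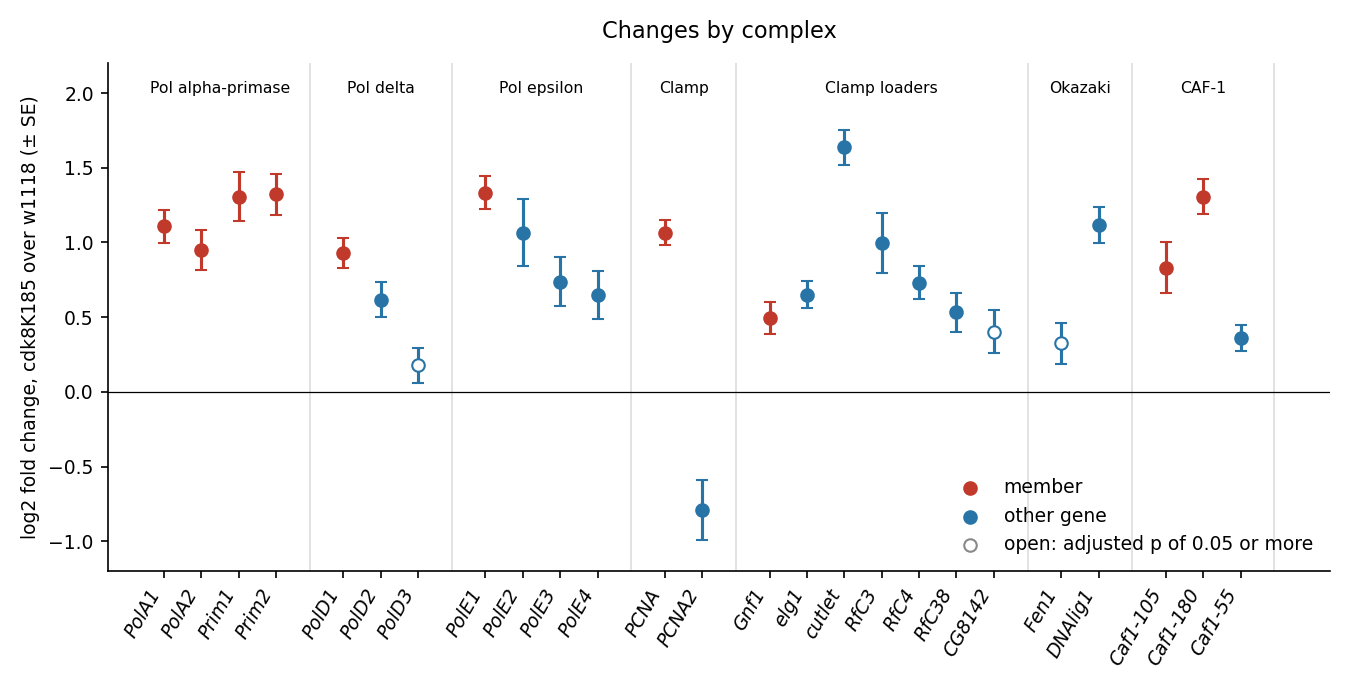
Log2 fold change of cdk8K185 over w1118 (edgeR, bars show ± 1 SE) for the genes of the list (red) and related genes (blue), in groups. Blue points are the other subunits of their complexes, PCNA2, elg1 and cutlet of other loaders, Fen1 and DNAlig1. Open points mark an adjusted p of 0.05 or more. PCNA2 (-0.79) is the only point below 0, and PolD3, CG8142 and Fen1 are open.

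Caf1-180 (FBgn0030054, X:8602137-8606304, minus strand, 3 exons) encodes the large CAF-1 subunit, which binds PCNA. It was at 19.7, 22.1 and 17.9 CPM in w1118, against 53.6, 49.9 and 44.2 CPM in cdk8K185, a difference many times the spread within either group. The log2 fold change was 1.31 (SE 0.12, adjusted p = 0.00033). It is the only X-linked gene of the list. The dosage compensation RNA roX1, which is made in males, was at 202, 427 and 451 CPM in w1118, against 755, 945 and 252 CPM in cdk8K185. The roX1 values overlapped between the genotypes, with means of 360 CPM in w1118 and 651 CPM in cdk8K185. Those of roX2, a second dosage compensation RNA, overlapped too, with means of 12.4 and 21.2 CPM. The share of males per pool and its part in the Caf1-180 result were not tested.

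Caf1-105 (FBgn0033526, 2R:10466001-10468540, minus strand, 2 exons), the middle CAF-1 subunit, was at 9.83, 9.13 and 7.54 CPM in w1118. In cdk8K185 it was at 13.2, 15.5 and 18.6 CPM, the widest spread of the list among mutant libraries relative to the mean. The groups did not overlap, and the log2 fold change was 0.83 (SE 0.17, adjusted p = 0.00876). Caf1-55, the small subunit, is a histone-binding protein that also serves in other chromatin complexes. It was at 78.1, 80.7 and 77.6 CPM in w1118, against 93.4, 108 and 103 CPM in cdk8K185 (log2 fold change 0.36, SE 0.09, adjusted p = 0.0171). Its call was lost without cdk8K185 replicate 2 or replicate 3 (adjusted p = 0.0562 and 0.0502).

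The 10 genes were also ordered by level, as CPM per kilobase of merged exons, in each genotype. PCNA was at the top in w1118 at 41.8 ± 2.40 CPM per kilobase (SD, n = 3), followed by Gnf1 at 12.1 ± 1.35 and Caf1-180 at 4.92 ± 0.528, and the libraries of these neighbours did not overlap. Next came PolA1 (3.83 ± 0.47), PolD1 (3.69 ± 0.209), Caf1-105 (3.56 ± 0.473), Prim1 (3.19 ± 0.583), Prim2 (3.16 ± 0.197) and PolA2 (3.06 ± 0.325). Each of these 6 overlapped its neighbour in the order, so that no neighbouring pair differed beyond its spread, although PolA1 and PolD1 were above Prim2 and PolA2 in every library. PolE1 was lowest at 1.78 ± 0.206 CPM per kilobase, without overlap with PolA2.

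In cdk8K185 the top of that order was the same, with PCNA at 87.5 ± 1.84 CPM per kilobase, Gnf1 at 17.0 ± 0.877 and Caf1-180 at 12.2 ± 1.18. PolA1 (8.27 ± 0.273), Prim2 (7.90 ± 0.794) and Prim1 (7.90 ± 0.531) then overlapped in turn. A gap followed to PolD1 (7.03 ± 0.203), whose libraries overlapped those of Caf1-105 (6.34 ± 1.09), which in turn overlapped those of PolA2 (5.92 ± 0.256). PolE1 was again lowest, at 4.49 ± 0.102 CPM per kilobase. By mean level the primase subunits ranked above PolD1 and Caf1-105 in the mutant and below them in w1118, but in the mutant only Prim1 and PolD1 were without overlap among these pairs.

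**Figure D3:**
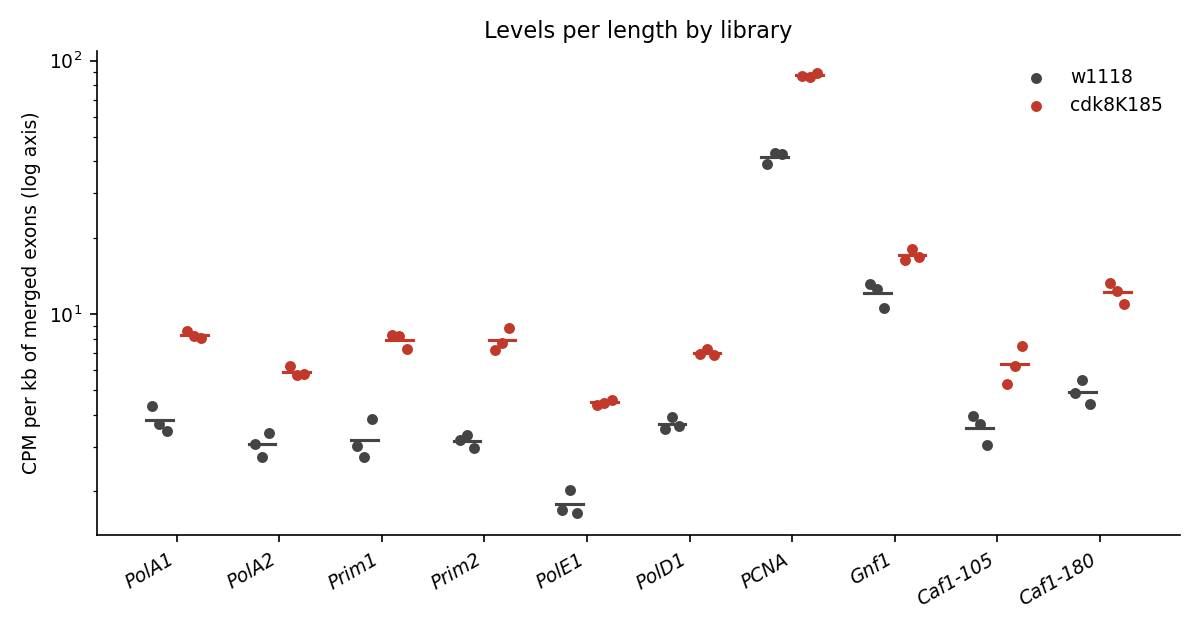
CPM per kilobase of merged exons (log axis) of the 10 genes in each library, w1118 in dark and cdk8K185 in red, with bars at the group means. PCNA lies at the top and PolE1 at the bottom in both genotypes.

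Ratios between pairs of these genes within a library do not depend on the scaling between libraries, and 6 pairs were compared by exact permutation tests over the 6 libraries, which cannot give a two-sided p under 0.1. The log2 ratio of PolE1 to PolD1 per kilobase was -1.06, -0.96 and -1.15 in w1118 and -0.66, -0.70 and -0.58 in cdk8K185. All mutant values lay above all control values, with a difference of 0.41 (exact permutation p = 0.1, adjusted over the 6 ratios p = 0.3). The log2 ratio of Gnf1 to PCNA was -1.57, -1.79 and -2.03 in w1118 and -2.41, -2.26 and -2.41 in cdk8K185. Here all mutant values lay below all control values, with a difference of -0.56 (exact permutation p = 0.1, adjusted p = 0.3). Both ratios thus shifted by more than the spread within either genotype, in a design too small to call them.

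The other 4 ratios overlapped between the genotypes. Within the polymerase alpha complex, PolA1 to PolA2 was 0.32 ± 0.26 on the log2 scale in w1118 and 0.48 ± 0.03 in cdk8K185 (SD, n = 3 each), an exact permutation p of 0.4. PolA1 to Prim1 was 0.27 ± 0.37 and 0.07 ± 0.07 (exact permutation p = 0.4, n = 3 each). The 2 primase subunits stood close to 1 to 1 per kilobase in both groups, at 0.00 ± 0.35 and 0.00 ± 0.24 (exact permutation p = 1, n = 3 each). For CAF-1, Caf1-105 to Caf1-180 was -0.30, -0.57 and -0.54 in w1118 and -1.32, -0.99 and -0.55 in cdk8K185. The third mutant library fell within the control range, and the difference of -0.48 had an exact permutation p of 0.2 (adjusted p = 0.4).

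**Figure D4:**
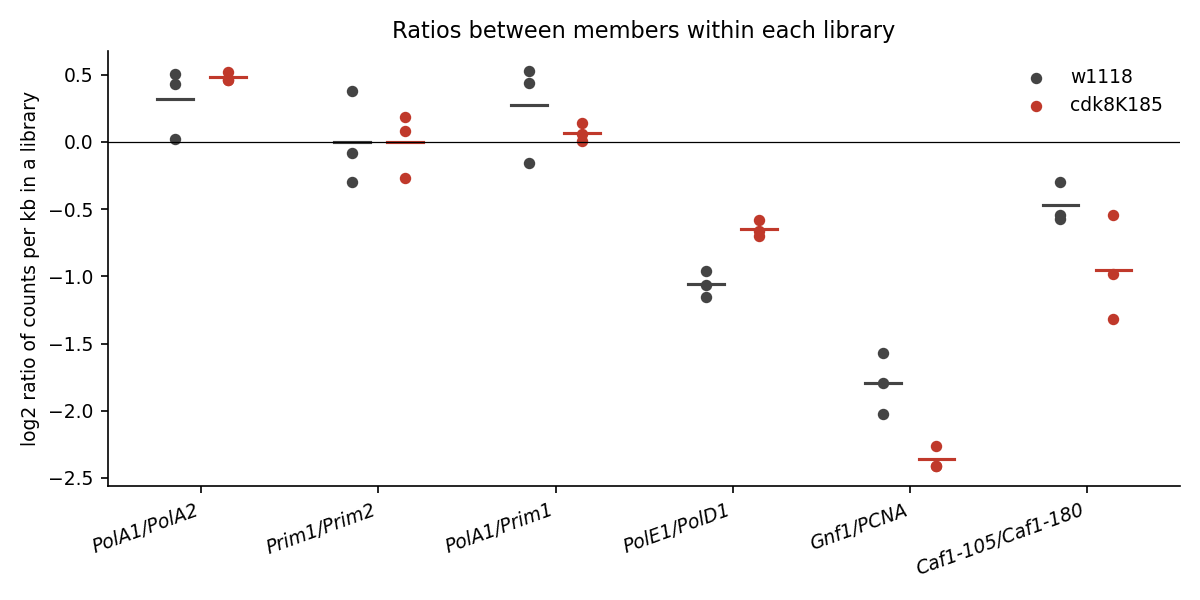
Log2 ratio of counts per kilobase between 2 genes within each library, for the 6 pairs compared, with w1118 in dark, cdk8K185 in red and bars at the means. Only PolE1/PolD1 (difference 0.41) and Gnf1/PCNA (difference -0.56) show groups that do not overlap.

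The spread of these genes between libraries of a genotype was small. The standard deviation of log2 CPM within a genotype had a median of 0.12 over the 10 genes (0.06 to 0.22), beside a median of 0.16 over the 5052 tested genes in the same range of mean level. The lowest count behind any of these values was 43, for Prim1 in w1118 replicate 2. Each of the 10 calls was kept in all 13 refits, which used other tools, other scaling, other filters, a term for the replicate number or 1 library fewer. The log2 fold change of PolE1 ranged from 1.29 to 1.55 over these refits and that of Gnf1 from 0.42 to 0.71. The highest adjusted p over the refits was 0.0334, for Gnf1, and 0.0256 for Caf1-105, with the other 8 lower.

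**Figure D5:**
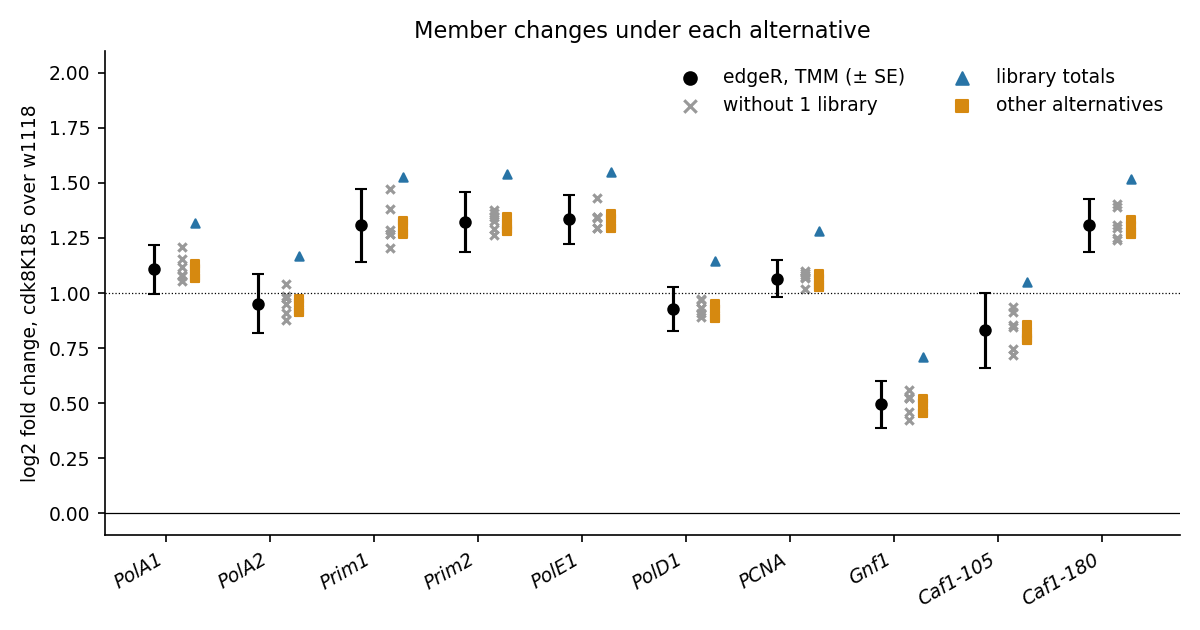
Log2 fold change of cdk8K185 over w1118 for the 10 genes in the edgeR fit with TMM scaling (black, ± 1 SE), in the fits that left out 1 library (crosses), with scaling by library totals (triangles) and in the other alternatives (squares). Every point lies above 0, the triangles lie highest, and the dotted line marks a 2-fold change.

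Reads from overlapping genes could not be told apart where counting ignored strand, and the strand setting of the counting is not given in the sources used here. PolA1 shares 115 exon bases with Jhbp16 on the opposite strand, which had 0 to 3 counts per library. PolD1 shares 41 exon bases with Arl1, also on the opposite strand, and Arl1 was at 45.3 ± 8.89 and 46.4 ± 1.92 CPM (n = 3 each, log2 fold change 0.03, adjusted p = 0.869). PolD1 also shares 32 with the noncoding RNA CR45446. Prim1 overlaps CG7083 on its own strand with no shared exon base, and the remaining 7 genes overlap no other gene. Among the other genes named below, opposite-strand overlaps of over 100 exon bases were found for DNAlig1 (112 with Upf3), Orc1 (105 with PIG-G) and PolZ2 (103 with noi). Such overlaps were also found for PolQ (253 with CG12279), E2f1 (283 with CR46055), E2f2 (399 with Mpp6) and Cdk2 (1010 with CG17267). Myb (139 with CG15914) and PolZ1 had them too.

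The other genes that act at the fork were described with a list of 25, of which 23 were tested. Of these, 16 were called higher and 1 lower, where 19.9% of all genes tested were higher and 17% lower. The median log2 fold change of the list was 0.65 (range -0.79 to 1.64). RPA1, the large subunit of the protein that coats single-stranded DNA, was at 59.4, 65.9 and 71.4 CPM in w1118, against 106, 119 and 117.9 CPM in cdk8K185 (log2 fold change 0.80, SE 0.10, adjusted p = 0.00127), and RPA2 and RPA3 were not analysed here. DNAlig1, the ligase that joins Okazaki fragments, went from 12.9, 12.4 and 10.3 CPM to 24.3, 26.4 and 26.7 CPM (log2 fold change 1.12, SE 0.12, adjusted p = 0.000633). Fen1, the nuclease that trims the primer ends, was at 11.6 ± 0.34 and 14.5 ± 2.15 CPM (n = 3 each) and did not pass the test (log2 fold change 0.32, adjusted p = 0.102), although its mutant libraries were all above its control libraries. Ctf4, which ties polymerase alpha to the helicase in yeast, had a log2 fold change of 1.37 (adjusted p = 0.000188).

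Most genes that load and start the replicative helicase were higher too. Of 22 listed, 21 were tested and 15 were called higher, none lower, beside 19.9% higher and 17% lower over all genes tested. The median log2 fold change of the 21 was 1.04. The largest changes were in Orc1, the ATPase subunit of the origin recognition complex (1.36, adjusted p = 0.000245), and Mcm5, a subunit of the helicase ring (1.23, adjusted p = 0.000193).

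For CAF-1, the comparison was with histone chaperones and genes of histone supply. Of 12 tested, 7 were called higher and none lower, where 19.9% of all genes tested were higher and 17% lower. Their median log2 fold change was 0.39 (0.19 to 0.93). All 12 had mutant libraries above the control libraries, where 29.2% of all genes did. The call count depended on the scaling and on 1 library, with 12 called with library totals and 4 without cdk8K185 replicate 3. The largest changes were in asf1, which hands histones to CAF-1 (0.93, adjusted p = 0.00206), and mxc, a component of the histone locus body (0.79, adjusted p = 0.00454).

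DNA polymerases for bypass, repair and mitochondria were a mixed set. Of 7 tested, 4 were called higher, 1 was called lower and 2 were not called, beside 19.9% higher and 17% lower over all genes tested. PolZ1, the catalytic subunit of polymerase zeta, had a log2 fold change of 1.69 (SE 0.11, adjusted p = 8.39e-05), and it shares 260 exon bases with Nop17l on the opposite strand. PolZ2, its partner subunit, had a log2 fold change of 0.97 (adjusted p = 0.00248). PolQ, which joins broken ends, fell by 0.70 on the log2 scale (adjusted p = 0.0227), and lost that call with library totals (-0.50) and in 3 of the 6 leave-one-out fits. Without cdk8K185 replicate 2 the calls in this set went from 5 to 3.

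The last comparison was with regulators of replication genes. E2F1 with its partner Dp activates genes of S phase, RBF holds E2F1 back, E2F2 represses, and DREF binds the promoters of many replication genes, PCNA among them. E2f1 was at 175, 182 and 188 CPM in w1118, against 196, 208 and 185.3 CPM in cdk8K185, which overlapped (log2 fold change 0.11, SE 0.09, adjusted p = 0.369), and it was called higher with library totals (0.33, adjusted p = 0.0406). Dref was at 56.7, 54.1 and 48.0 CPM against 52.3, 60.5 and 56.8 CPM, which overlapped too (0.09, adjusted p = 0.49). Dp was higher without overlap, at 81.7, 84.6 and 80.9 CPM against 114, 119 and 115 CPM (0.50, SE 0.08, adjusted p = 0.003). Rbf was at 52.1, 48.0 and 52.2 CPM against 68.4, 70.2 and 70.3 CPM (0.46, SE 0.08, adjusted p = 0.00477). E2f2 was lower (-0.38, adjusted p = 0.0209), a call that was lost with library totals (-0.17) and in 3 of the 6 leave-one-out fits. Of 13 regulators tested, 5 were called higher and 1 lower, beside 19.9% higher and 17% lower over all genes tested. Without cdk8K185 replicate 1, and also without cdk8K185 replicate 3, 3 were called in all. The largest rise was in Cdk2 (0.59, adjusted p = 0.00469), the kinase that starts S phase with cyclin E.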

How the data were processed

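Libraries were prepared by the authors from TRIzol-extracted, column-purified RNA of pooled larvae kept at 25 °C. The deposited table holds whole-number counts of reads per gene, which the authors did not normalize. The submitters' processing notes name STAR, featureCounts, DESeq2 and the dm6 genome; versions, annotation release and strand setting are not given in the sources used here. Names, positions and exon lengths came from the BDGP6.54 annotation (dm6 coordinates), which matched 17477 of 17562 rows.

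Counts were filtered with filterByExpr (minimum count 10, minimum total 15), scaled by TMM and tested with edgeR 4.0.16 (R 4.3.3; robust quasi-likelihood F-test, genotype as the only term, two-sided, Benjamini-Hochberg over 10632 genes, threshold 0.05). SE is the log2 fold change over the square root of F. Total counts of 9208564 to 11724703 put a floor of 3 counts at 0.253 to 0.323 CPM. Alternatives were DESeq2 1.42.0, limma-voom 3.58.1, other scaling and filters, a replicate term and each library left out. The code was tested on simulated counts. Summaries and figures used Python 3.11.15, pandas 2.3.3 and matplotlib 3.10.9.

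Named genes were the 10 members, the partner subunits of their complexes, RPA1, RPA2, RPA3, PCNA2, Fen1, DNAlig1 and 5 regulators. Per list, up to 2 called genes with the largest change in each direction were named as well. The gene elg1 was added after its values were seen. Other genes are named where an overlap, the allele or the sex of the larvae bears on a value. The members and lists were chosen with earlier results of these data known. Libraries of a genotype differed from each other by more than sampling noise (chi-square over genes), so each counted as 1 replicate. A promoter motif search was not run.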

Additional observations from a re-analysis of the deposited data

How the results depend on the processing

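In the edgeR fit with TMM scaling, 9 of the 10 replication genes were at an adjusted p under 0.01. All 10 were called higher under each alternative at an adjusted p under 0.05. Their median log2 fold change was 1.30 with library totals in place of 1.09, and 1.07 to 1.11 with a library left out. Called histone chaperones numbered 7, 12 with library totals, 4 at an adjusted p under 0.01 and 4 to 7 with a library left out. Called other polymerases numbered 5, 3 at that stricter threshold and 3 to 5 with a library left out. Called regulators numbered 6 (5 higher, 1 lower), 8 with library totals (8 higher), 3 at the stricter threshold and 3 to 5 with a library left out. The cause of these moves was not tested.

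Same-numbered libraries deviated from their group means with correlations of -0.19, 0.51 and 0.56, replicate 1 did not correlate best with its own number, and nothing in the labels pairs them. With a replicate block, 10 replication genes were called and their median log2 fold change was 1.09. An added requirement that the genotypes' libraries not overlap, chosen after seeing the data, left 10 called. The promoter motif search was not run. With 3 libraries a genotype, ratios between genes cannot reach an exact permutation p under 0.1.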

Other observations

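Some replication genes that share many exon bases with another annotated gene were listed at 0 in all 6 libraries. Orc3, a subunit of the origin recognition complex, shares 3315 exon bases with CG34315, PolG2, the accessory subunit of the mitochondrial polymerase, shares 1570 with GatC, and Myb, a regulator of late cell cycle genes, shares 2903 with CG46440. These partners were listed at 0 as well, and the part of the overlap in these values was not tested.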
